A study of Mus musculus with 12 samples.

Results

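Rcan2, its relatives Rcan1 and Rcan3, and the genes of the calcineurin subunits Ppp3ca, Ppp3cb, Ppp3cc and Ppp3r1 were followed in mouse liver, 7 of the 18193 genes that the array measured with a probe set of a single gene symbol. The 7 genes have 18 such probe sets, and for each gene the brightest one on average gave the values below, with the others as a check. Rcan2 was chosen by its expression values, being higher under penicillin on both diets in these data, so its penicillin values are a description and carry no test. The other 6 genes were taken for what their proteins do, though with earlier results of these data known.

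Total liver RNA of 12 male C57BL6J mice, a common inbred strain, was hybridised to 3′ expression arrays at 30 weeks of age, 1 mouse to an array and 3 mice to a group. Penicillin high-fat mice drank penicillin at 6.7 mg/L and ate a diet with 45% of its energy as fat from 17 weeks of age. Control high-fat mice ate that diet and received no antibiotic. Penicillin chow mice drank the same penicillin and stayed on chow with 13.5% of energy as fat, on which all mice had begun, and control chow mice had chow and no antibiotic. The labels do not state when penicillin began, nor cages or litters. Arrays are called by group and replicate number, as in penicillin chow 1, and levels are log2 expression values, on which a difference of 1 is a doubling.

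Calcineurin is a phosphatase that is switched on by calcium and calmodulin. Its catalytic subunit A, made from Ppp3ca, Ppp3cb or Ppp3cc, pairs with the calcium-binding subunit B, made from Ppp3r1 outside the testis. Its best known substrates are the NFAT transcription factors, which enter the nucleus once they are dephosphorylated. RCAN proteins bind the catalytic subunit and inhibit it, and some studies find that they can also help it. Rcan1 is itself a target of NFAT from an internal promoter and is known as a stress-induced gene. The human counterpart of Rcan2 was found as a gene induced by thyroid hormone in skin fibroblasts, and mice without Rcan2 are known to stay leaner.

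Rcan2 was highest in penicillin high-fat mice and lowest in control chow mice. It measured 8.41, 8.40 and 8.42 in penicillin high-fat mice, 7.33, 7.07 and 6.97 in control high-fat mice, 6.75, 7.02 and 7.05 in penicillin chow mice, and 6.14, 6.03 and 6.11 in control chow mice. The penicillin high-fat mice thus lay above all others, the control chow mice below all others, and the remaining pair of groups overlapped in the middle. The means were 8.41 ± 0.01 in penicillin high-fat, 7.12 ± 0.18 in control high-fat, 6.94 ± 0.17 in penicillin chow and 6.09 ± 0.06 in control chow mice (SD, n = 3 each). Control high-fat mice exceeded penicillin chow mice by 0.19 ± 0.10 (SE), which is within the spread of single mice. From penicillin high-fat to control chow mice the difference was 2.32 ± 0.10, or 4.99-fold.

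On high-fat diet, Rcan2 was 1.29 ± 0.10 higher in penicillin than in control mice, a 2.44-fold difference, and on chow it was 0.85 ± 0.10 higher, 1.80-fold. The penicillin difference on high-fat diet exceeded that on chow by 0.44 ± 0.15 (SE). These 3 values rest on the contrasts that led to the choice of Rcan2. High-fat feeding averaged over both kinds of mice is orthogonal to those contrasts and was tested. The test shares its estimate of the spread with them, so its p and the rank by p are not wholly free of the choice. Rcan2 rose by 1.25 ± 0.07 with high-fat feeding, 2.38-fold (limma adjusted p = 3.98e-06), and in either treatment the 3 high-fat mice lay above the 3 chow mice. By treatment the diet difference was 1.47 ± 0.10 in penicillin mice and 1.03 ± 0.10 in control mice. Of 13788 genes tested, 14.5% passed an adjusted p of 0.05 for this diet effect. Rcan2 ranked 4 among them by p and 53 by the size of the difference.

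**Figure D1:**
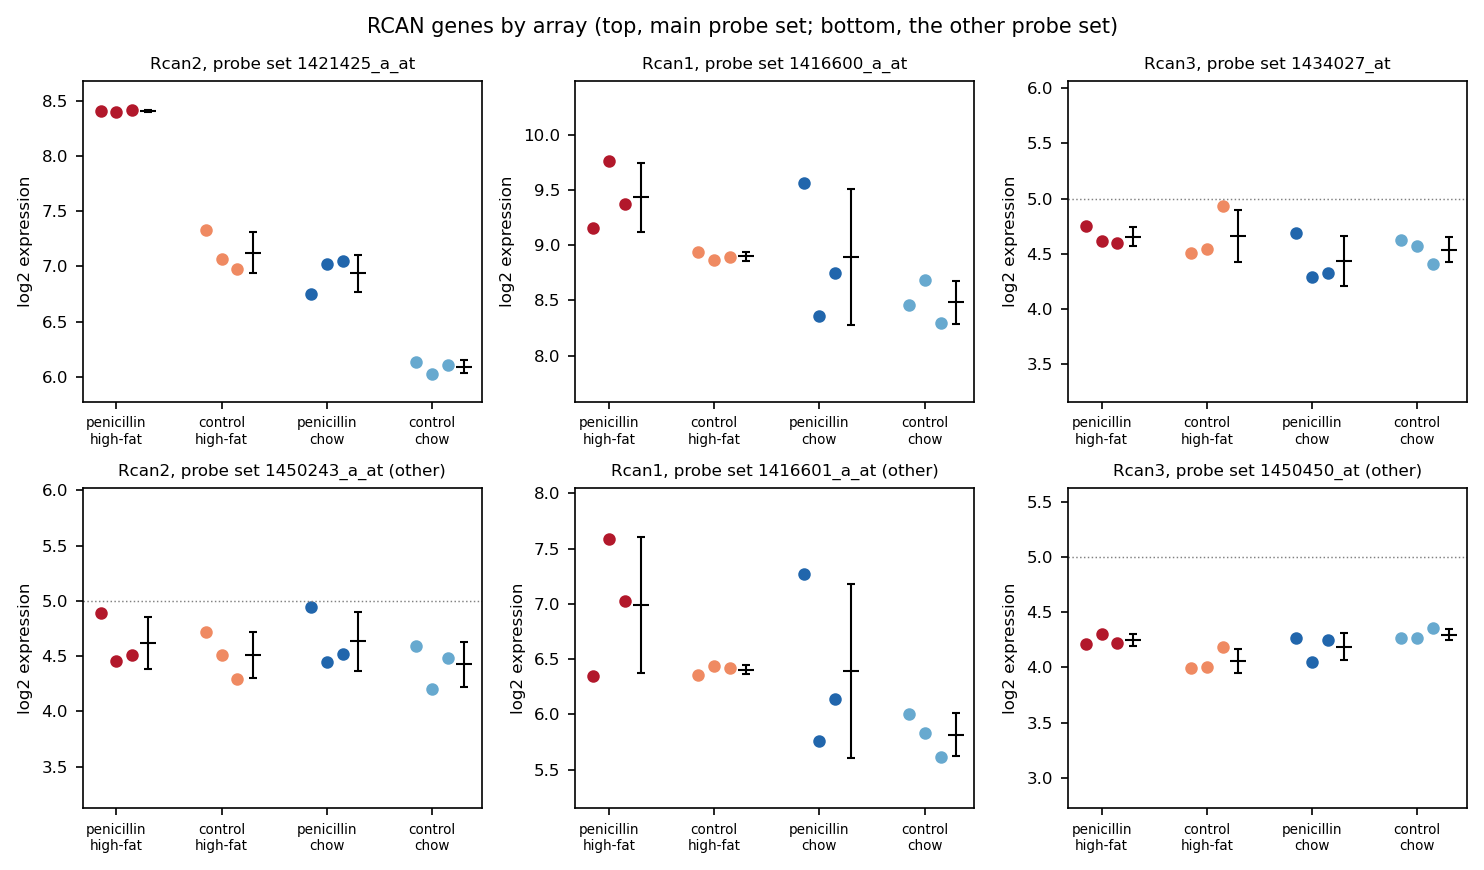
Log2 expression (vertical axis, each panel spanning the same range) of Rcan2, Rcan1 and Rcan3 in the 4 groups, with 1 point per mouse, and beside them the mean and SD of the 3 mice. The upper row is the probe set used, the lower row the other one of the same gene, and the dotted line at 5.0 is the floor of the filter on low values. The first probe set of Rcan2 steps down from penicillin high-fat to control chow mice, and its other probe set stays below the floor throughout.

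The other probe set of Rcan2, annotated to the same transcript accession, did not show this pattern. It lay between 4.46 and 4.89 in penicillin high-fat mice, 4.30 and 4.72 in control high-fat mice, 4.45 and 4.94 in penicillin chow mice, and 4.20 and 4.59 in control chow mice, so that all groups overlapped. All of these values are under 5.0, the 40th percentile of the table, where a signal cannot be told from background on this array. Its difference for high-fat diet averaged over treatments was 0.03 ± 0.12. The Rcan2 result therefore rests on a single probe set.

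The gene table used here gives Rcan2 3 transcription starts on chromosome 17. A 3′ array does not tell which of them is in use, so the 250 bases before each start are given (RefSeq, build GRCm38.p6, 5′ to 3′ along the gene), followed by those before the internal start of Rcan1 on chromosome 16. Capitals mark GGAAA or its reverse complement TTTCC, the core that NFAT factors bind.
Rcan2 first start, chr17:43801102-43801351, + strand: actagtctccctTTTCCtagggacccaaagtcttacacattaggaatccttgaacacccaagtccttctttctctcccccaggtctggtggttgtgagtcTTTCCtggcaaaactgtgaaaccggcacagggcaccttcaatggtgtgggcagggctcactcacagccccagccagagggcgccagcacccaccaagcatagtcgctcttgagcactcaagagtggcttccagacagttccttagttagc
Rcan2 second start, chr17:43801601-43801850, + strand: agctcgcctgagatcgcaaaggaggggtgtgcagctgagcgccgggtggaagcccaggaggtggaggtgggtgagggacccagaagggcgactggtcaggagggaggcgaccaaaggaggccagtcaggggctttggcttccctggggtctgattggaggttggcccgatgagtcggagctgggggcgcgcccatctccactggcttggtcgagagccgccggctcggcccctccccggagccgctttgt
Rcan2 last start, chr17:43952749-43952998, + strand: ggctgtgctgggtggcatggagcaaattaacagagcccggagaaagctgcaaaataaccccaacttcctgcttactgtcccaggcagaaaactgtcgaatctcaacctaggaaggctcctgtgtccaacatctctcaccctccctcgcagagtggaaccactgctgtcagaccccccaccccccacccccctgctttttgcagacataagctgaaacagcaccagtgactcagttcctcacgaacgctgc
Rcan1 internal start, chr16:92400079-92400328, - strand: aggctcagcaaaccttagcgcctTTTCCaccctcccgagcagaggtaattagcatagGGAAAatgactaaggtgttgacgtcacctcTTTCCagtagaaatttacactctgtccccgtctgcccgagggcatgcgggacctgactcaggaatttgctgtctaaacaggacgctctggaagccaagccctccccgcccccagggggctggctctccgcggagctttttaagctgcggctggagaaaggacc
The window of the first Rcan2 start has 2 matches, 238 and 150 bases before the start, and the other Rcan2 windows have 0. The internal Rcan1 window has 3, at 227, 193 and 163 bases before the start. Of 32851 such windows in the whole table, 55.6% hold the motif, so a match is common and is only a description of the letters. The half-site of thyroid hormone receptors, AGGTCA or TGACCT, was found in 0 of the 8 windows of the calcineurin group, against 14% of all windows. Of the 7 genes, 5 had a window in the table.

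Rcan1, which encodes the relative of Rcan2 that NFAT induces, had the widest spread within groups of the 6 tested genes. It measured 9.16, 9.77 and 9.37 in penicillin high-fat mice, 8.94, 8.86 and 8.89 in control high-fat mice, 9.57, 8.36 and 8.74 in penicillin chow mice, and 8.46, 8.69 and 8.30 in control chow mice. The 3 penicillin high-fat mice lay above the 3 control high-fat mice, and on chow 1 of the penicillin mice lay far above the rest. Its penicillin difference was 0.53 ± 0.25 on high-fat diet (limma adjusted p = 0.509) and 0.41 ± 0.25 on chow (limma adjusted p = 0.744). For high-fat diet averaged over treatments it was 0.48 ± 0.18 (limma adjusted p = 0.0920). The other probe set of Rcan1, a dimmer one, gave 0.59 ± 0.25 for the same contrast and the same high mouse, at 7.27. On that probe set the high-fat groups were not separate. Penicillin high-fat 1 stood at 6.35, below the control high-fat mice at 6.36 to 6.43.

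That mouse, penicillin chow 1, also had the highest acute-phase signal, a mean of 12.57 over 20 genes such as Saa1, against 10.75 to 11.64 on the other 11 arrays. Without it, Rcan1 rose by 0.65 ± 0.12 with high-fat diet averaged over treatments (limma adjusted p = 0.00468) and by 0.88 ± 0.17 in penicillin mice alone (limma adjusted p = 0.0119), while its penicillin difference on chow was 0.07 ± 0.17. Without the 3 arrays of low 18S ribosomal signal, where penicillin chow 1 is the only mouse left in its group and is assumed to vary like the other groups, the penicillin difference of Rcan1 on chow was 1.08, which is that mouse against the controls, and its diet difference averaged over treatments was 0.06 ± 0.10. The part of the acute-phase signal in Rcan1 was not tested. Rcan2 stood at 6.75 in penicillin chow 1, the lowest of its group, and the part of the acute-phase signal in it was not tested either.

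Rcan3, the last of the family, was below the floor on every array with both probe sets and was therefore not tested. Its brighter probe set lay between 4.60 and 4.75 in penicillin high-fat mice, 4.51 and 4.93 in control high-fat mice, 4.29 and 4.69 in penicillin chow mice, and 4.41 and 4.63 in control chow mice. At this brightness no level of Rcan3 can be given.

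The calcineurin subunits moved little beside Rcan2. Among the 5 tested genes other than Rcan2, limma called 0 for penicillin on high-fat diet, 0 on chow and 0 averaged over diets, where 0.341%, 0.00725% and 0.145% of all genes were called. At an unadjusted p under 0.05 there were 0 of 5 on high-fat diet, 2 on chow and 3 on average, beside 10.1%, 7.62% and 11.9% of all genes. For high-fat diet limma called 1 of 5 in penicillin mice, Ppp3cb, and 0 of 5 in control mice, where 8.32% and 0.899% of all genes were called. At an unadjusted p under 0.05 there was 1 of 5 in either, beside 24.5% and 15.1% of all genes. Averaged over treatments limma called 1 of 6, Rcan2, beside 14.5% of all genes, and 4 of 6 had an unadjusted p under 0.05, namely Rcan2, Rcan1, Ppp3cb and Ppp3cc, beside 30.1% of all genes. The interaction called 0 of 5 by limma, with 0 at an unadjusted p under 0.05, beside 0.0435% and 6.11% of all genes. So few genes cannot be told from these shares.

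Ppp3ca, the catalytic subunit A alpha, measured 9.04, 8.84 and 8.63 in penicillin high-fat mice, 8.77, 8.83 and 8.89 in control high-fat mice, 8.48, 8.85 and 8.84 in penicillin chow mice, and 8.86, 8.69 and 8.71 in control chow mice. All 4 groups overlapped. The difference for high-fat diet averaged over treatments had a 95% interval of -0.09 to 0.28, and that for penicillin averaged over diets one of -0.20 to 0.17, both short of the Rcan2 differences. Its other 2 probe sets gave -0.02 ± 0.07 and -0.04 ± 0.08 for the diet.

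Ppp3cb, the catalytic subunit A beta, measured 9.10, 9.14 and 9.07 in penicillin high-fat mice, 9.0, 9.19 and 9.20 in control high-fat mice, 8.91, 8.80 and 8.76 in penicillin chow mice, and 9.08, 9.11 and 8.98 in control chow mice. The penicillin chow mice lay below all other mice, and the remaining 3 groups overlapped. In penicillin mice Ppp3cb rose by 0.28 ± 0.08 with high-fat diet (limma adjusted p = 0.0451), and on chow penicillin mice differed from controls by -0.23 ± 0.08 (limma adjusted p = 0.536). The call is a narrow one, kept in 3 of 12 fits with 1 array removed, and it was lost without the 3 arrays of low 18S signal, at 0.17 ± 0.12. Averaged over treatments the diet difference was 0.18 ± 0.05 (limma adjusted p = 0.0510), and without penicillin chow 1 it passed at 0.20 ± 0.06 (limma adjusted p = 0.0348). Its probe sets gave different values on chow: the next brightest gave 0.01 ± 0.13 for penicillin there, while for high-fat diet in penicillin mice it gave 0.35 ± 0.13. Another one above the floor on every array gave -0.04 ± 0.14 for that diet contrast. A dimmer one, also above the floor on every array, gave 0.34 ± 0.16.

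Ppp3cc, the catalytic subunit A gamma, was dim, near the floor of the filter. It measured 5.07, 5.34 and 4.92 in penicillin high-fat mice, 5.24, 5.28 and 5.27 in control high-fat mice, 5.22, 5.31 and 5.20 in penicillin chow mice, and 5.59, 5.81 and 5.33 in control chow mice. The control chow mice were the highest, and only their lowest mouse fell within the range of another group, the penicillin high-fat mice. The penicillin difference averaged over diets was -0.24 ± 0.09 (limma adjusted p = 0.308) and the diet difference averaged over treatments -0.23 ± 0.09 (limma adjusted p = 0.109). The gene was thus opposite in sign to Rcan2 in both, without a call. Its other probe set, below the floor on every array, gave -0.37 ± 0.10 for penicillin and -0.08 ± 0.10 for the diet.

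Ppp3r1, the regulatory subunit B, measured 9.58, 9.57 and 9.69 in penicillin high-fat mice, 9.54, 9.56 and 9.47 in control high-fat mice, 9.71, 9.48 and 9.58 in penicillin chow mice, and 9.53, 9.52 and 9.38 in control chow mice. The 3 penicillin high-fat mice lay just above the 3 control high-fat mice, and the groups overlapped on chow. The difference for high-fat diet averaged over treatments was 0.04 ± 0.06, with a 95% interval of -0.09 to 0.16. That for penicillin averaged over diets was 0.10 ± 0.06, with one of -0.02 to 0.23 (limma adjusted p = 0.499). The other probe set, a dimmer one, gave -0.08 ± 0.09 for the diet and 0.11 ± 0.09 for penicillin. On it the penicillin and control high-fat mice overlapped.

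**Figure D2:**
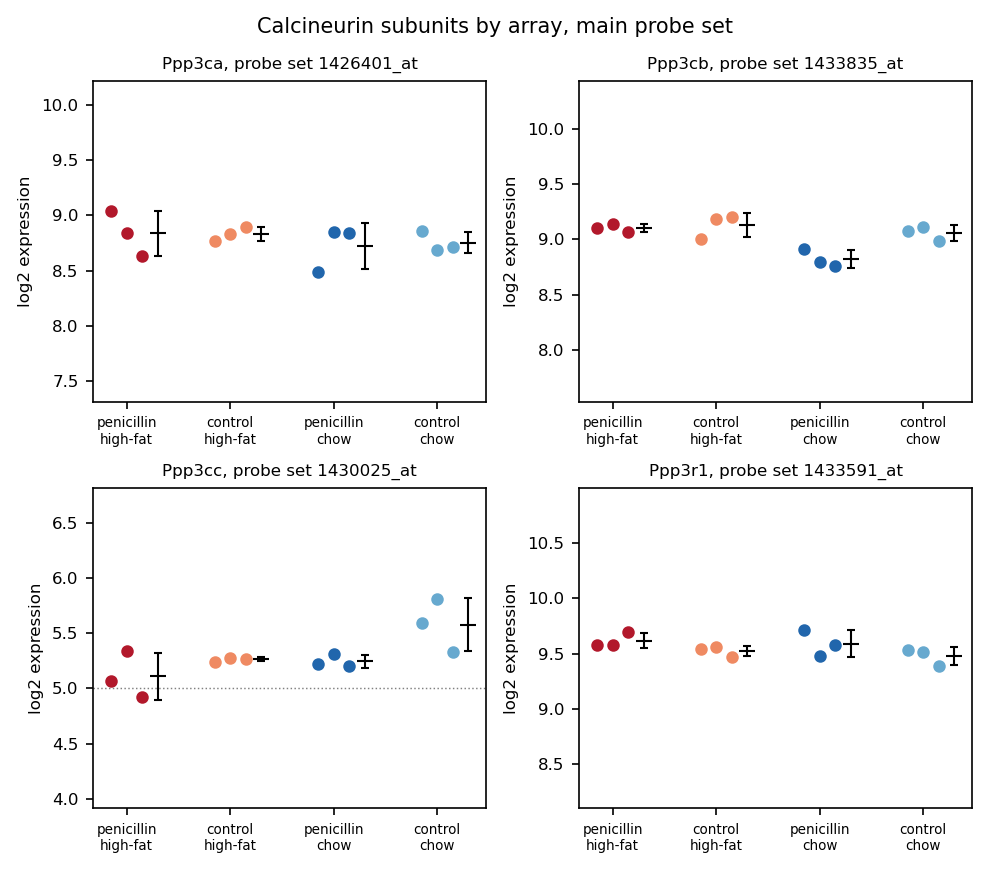
Log2 expression (vertical axis, each panel spanning the same range as in the plot of the RCAN genes) of the 4 calcineurin subunit genes in the 4 groups, with 1 point per mouse and the mean and SD of the 3 mice beside them. Ppp3cb is lowest in penicillin chow mice, Ppp3cc lies near the dotted floor at 5.0, and Ppp3ca overlaps in all groups.

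**Figure D3:**
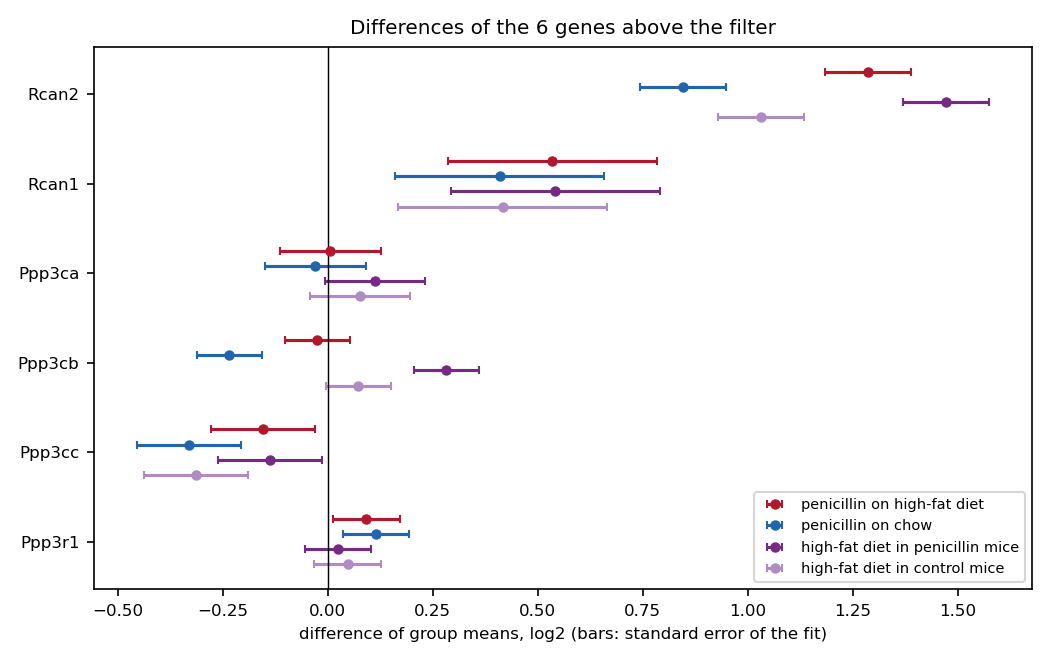
Differences of group means on the log2 scale (horizontal axis) and their standard errors, for the 6 genes above the filter and 4 contrasts. Rcan2 lies between 0.85 and 1.47 in all 4, while the 4 subunit genes lie between -0.33 and 0.28.

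The samples carried the marks of liver. All 8 hepatocyte markers were above the floor, with a mean of 12.84 to 13.15 on every array. Of the markers of other cells, 8 of 8 macrophage, 7 of 7 endothelial and 7 of 7 stellate cell genes were above the floor. The endothelial mean was 8.50 to 8.79 in penicillin high-fat mice and 8.65 to 8.70 in control high-fat mice, against 7.87 to 8.30 in penicillin chow mice and 8.23 to 8.39 in control chow mice, so all high-fat mice lay above all chow mice, while penicillin and control mice overlapped on both diets. The macrophage mean was 9.30 to 10.02 in penicillin high-fat, 9.83 to 9.96 in control high-fat, 8.60 to 9.23 in penicillin chow and 9.31 to 9.48 in control chow mice. The stellate cell mean was 8.35 to 8.76 in penicillin high-fat, 8.32 to 8.56 in control high-fat, 7.95 to 8.15 in penicillin chow and 8.28 to 8.36 in control chow mice. Both lists were lowest in penicillin chow mice. The adipocyte mean, over the 3 of 5 markers on the array, was 6.35 to 6.41 in penicillin high-fat, 6.12 to 6.34 in control high-fat, 5.92 to 6.16 in penicillin chow and 6.03 to 6.13 in control chow mice, with Adipoq below the floor. Among tissues rich in Rcan2 elsewhere, neurons left little signal, with 2 of 5 markers above the floor and means of 4.61 to 4.84 over all arrays. Of striated muscle, 3 of 6 markers were above the floor. Its means were 5.21 to 6.13 in penicillin high-fat, 5.20 to 5.75 in control high-fat, 5.20 to 5.28 in penicillin chow and 5.21 to 5.33 in control chow mice. Of smooth muscle, 3 of 4 markers were above the floor. Its means were 5.93 to 6.39, 5.80 to 6.26, 5.74 to 5.90 and 5.75 to 5.83 in the same order of groups. The highest values of both muscle lists were in high-fat mice. The part of these cells in the Rcan2 differences was not tested, and more cells of a type cannot be told from more RNA per cell in whole tissue.

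The 18S control signal was low on 3 arrays, all of penicillin mice: 11.81 in penicillin high-fat 2, and 11.76 and 11.77 in penicillin chow 2 and 3, against at least 12.67 elsewhere. Rcan2 stood at 8.40 in penicillin high-fat 2, beside 8.41 and 8.42 in the other mice of its group. In penicillin chow 2 and 3 it stood at 7.02 and 7.05, above the 6.75 of penicillin chow 1. The part of the 18S signal in the Rcan2 differences was not tested. Without the 3 arrays the penicillin difference of Rcan2 was 1.29 ± 0.11 on high-fat diet and 0.66 ± 0.14 on chow. For the last value only penicillin chow 1 was left in its group.

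The rest of the pathway and thyroid hormone genes of the liver were read from 7 lists of 89 genes, of which 74 passed the filter. For penicillin 0 of the 74 were called on high-fat diet, on chow or on average by limma, with 7, 5 and 9 at an unadjusted p under 0.05, beside 10.1%, 7.62% and 11.9% of all genes. For high-fat diet averaged over treatments 11 were called, 5 higher and 6 lower, which is 14.9% beside 14.5% of all genes (9.63% higher and 4.85% lower), with a median difference of -0.03 beside -0.01 over all genes. As a whole the lists thus stood at the background.

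Among 14 calcineurin substrates, with a median of -0.05, 1 gene was lower on high-fat diet: Tfeb, a factor of lysosome genes, at -0.24 ± 0.06 (limma adjusted p = 0.0262). The 4 NFAT factors regulated by calcineurin were measured and not called. Among 10 kinases that act against calcineurin on NFAT, 2 were lower, Gsk3b at -0.20 ± 0.06 (limma adjusted p = 0.0408) and the JNK gene Mapk8 at -0.17 ± 0.05 (limma adjusted p = 0.0279). Cabin1, which encodes a calcineurin inhibitor, was the 1 lower gene among 7 other binding proteins, at -0.37 ± 0.09 (limma adjusted p = 0.0247). Tfeb, Gsk3b, Mapk8 and Cabin1 were each lost without the 3 arrays of low 18S signal, with adjusted p of 0.134, 0.139, 0.144 and 0.0976. With 1 array removed they kept their calls in 6, 2, 8 and 8 of 12 fits, in the order Tfeb, Gsk3b, Mapk8 and Cabin1.

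Camk1, a calmodulin-dependent kinase gene, was the 1 called of 8 genes of calmodulin kinases, and the calmodulin genes themselves were not among the genes measured by a single-symbol probe set. It stood at 7.18, 6.85 and 6.98 in penicillin high-fat mice and 6.77, 6.86 and 6.62 in control high-fat mice, against 6.33, 6.37 and 6.51 in penicillin chow mice and 6.24, 6.49 and 6.42 in control chow mice. All high-fat mice thus lay above all chow mice. It rose by 0.48 ± 0.07 with the diet (limma adjusted p = 0.00192) and kept its call in all 12 fits with 1 array removed. Of 15 genes of calcium stores and entry, 1 was lower, the phospholipase Plcg1, at -0.40 ± 0.09 (limma adjusted p = 0.0151), whose penicillin chow 1 value of 8.62 lay among the high-fat mice. Its call was lost without the 3 arrays of low 18S signal (limma adjusted p = 0.0631). Among 9 other phosphatases of the same superfamily 0 were called (limma). Those with the smallest p in any contrast were Ppp2cb and Ppp1cb, for penicillin averaged over diets, at 0.18 ± 0.06 and 0.17 ± 0.06 (limma adjusted p = 0.274 and 0.328).

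Thyroid hormone genes of the liver were listed because of the human Rcan2 counterpart. For high-fat diet averaged over treatments, 4 of the 11 tested were higher and 1 lower, beside 9.63% and 4.85% of all genes, and the median difference was 0.24 beside -0.01. Serpina7, the thyroxine-binding globulin, rose by 1.31 ± 0.14 (limma adjusted p = 3.02e-04), Me1, the malic enzyme, by 0.95 ± 0.17 (limma adjusted p = 0.00396), Dio1, the deiodinase that makes active hormone, by 0.49 ± 0.12 (limma adjusted p = 0.0169), and Gpd2, the mitochondrial glycerophosphate dehydrogenase, by 0.45 ± 0.12 (limma adjusted p = 0.0277). Bcl3 was lower, at -0.65 ± 0.20 (limma adjusted p = 0.0449). The receptors Thra and Thrb stood at -0.23 ± 0.15 and -0.16 ± 0.09, and Thrsp, a lipogenic gene known for its response to thyroid hormone, at 0.36 ± 0.33, none of them called. Klf9 stood at 0.24 ± 0.10, Hr at -0.07 ± 0.08 and Slc16a10 at -0.32 ± 0.12, also without a call. Of the 11 differences, 6 were positive. Serpina7, Me1 and Dio1 kept their calls in all 12 fits with 1 array removed, Gpd2 in 6 and Bcl3 in 3, and Gpd2 lost its call without the 3 arrays of low 18S signal (limma adjusted p = 0.0726).

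Serpina7 came closest to Rcan2 in this list. It measured 11.37, 11.24 and 11.60 in penicillin high-fat mice, 11.02, 11.14 and 10.69 in control high-fat mice, 10.60, 9.94 and 9.88 in penicillin chow mice, and 9.34, 9.69 and 9.76 in control chow mice. As for Rcan2, the penicillin mice lay above the controls on each diet, and the high-fat mice above the chow mice within either treatment. Control high-fat and penicillin chow mice overlapped for Rcan2, while for Serpina7 all high-fat mice lay above all chow mice. The penicillin difference of Serpina7 was 0.45 ± 0.19 on high-fat diet and 0.55 ± 0.19 on chow, without a call (limma adjusted p = 0.451 and 0.598). For Dio1 these values were 0.49 ± 0.17 and 0.53 ± 0.17 and for Me1 0.55 ± 0.24 and 0.60 ± 0.24, again without a call. Without the 3 arrays of low 18S signal, penicillin chow 1 is alone in its group and the spread comes from the other groups. No count of penicillin calls in this list is therefore read from that fit.

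**Figure D4:**
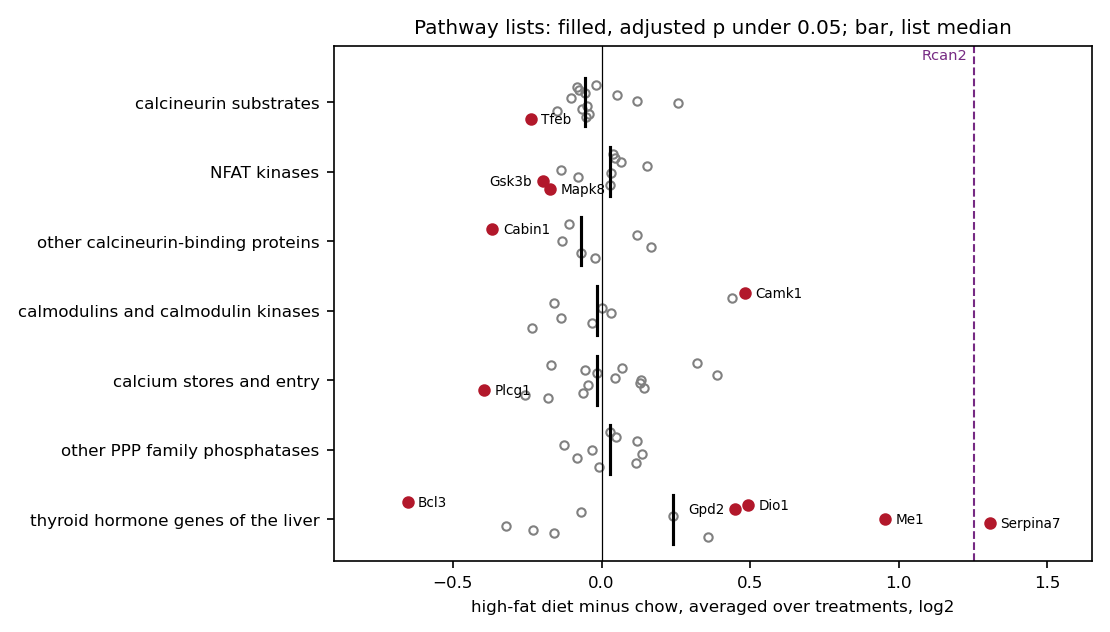
Difference between high-fat diet and chow averaged over treatments, on the log2 scale (horizontal axis), of every tested gene of the 7 lists, with 1 point per gene, filled where the adjusted p was under 0.05, and a bar at the list's median. The dashed line marks Rcan2 at 1.25, near which only Serpina7, at 1.31, lies.

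Across the 12 arrays the genes most like Rcan2 by Pearson's r were Ubxn2a at 0.96, Atp6v1g1 at 0.96, Wfdc2 at 0.96, Myo1d at 0.95, Ghitm at 0.95, Slc22a27 at 0.95, Perp at 0.95, Spryd7 at 0.95, Pmpcb at 0.94 and Plekha1 at 0.94. The most opposite were Rpl10a at -0.97, Irf3 at -0.95, Tcf3 at -0.94, Rrp9 at -0.94 and Cyp2c37 at -0.94. These r values describe 12 arrays that share 4 group means, and after removal of the group means they were lower, 0.74 for Atp6v1g1, a subunit of the proton pump, 0.73 for Spryd7 and 0.24 for Ubxn2a. Of these genes, Wfdc2 and Slc22a27 had larger diet differences than Rcan2 and the others smaller ones. For high-fat diet averaged over treatments Ubxn2a differed by 0.31 ± 0.05 and Atp6v1g1 by 0.21 ± 0.05, and Wfdc2 by 1.76 ± 0.15 and Slc22a27, a transporter of organic anions, by 2.39 ± 0.12. The other genes of the calcineurin group were less like Rcan2, with r of 0.70 for Rcan1, 0.49 for Ppp3r1, 0.28 for Ppp3ca, 0.18 for Ppp3cb and -0.73 for Ppp3cc. After removal of the group means r was -0.54 for Rcan1, -0.30 for Ppp3r1, 0.33 for Ppp3ca, -0.89 for Ppp3cb and -0.15 for Ppp3cc, so that the sign turned for Rcan1, Ppp3r1 and Ppp3cb.

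**Figure D5:**
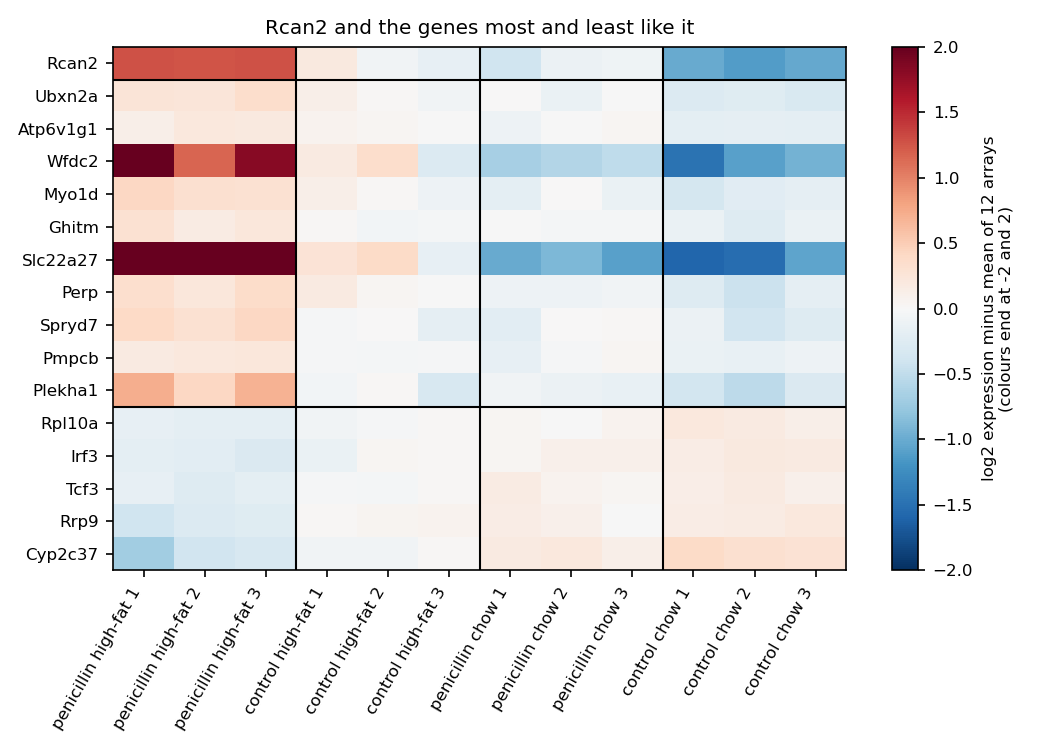
Log2 expression minus the mean of the 12 arrays (colour, ending at -2 and 2) of Rcan2 and of the 10 genes with the highest and the 5 with the lowest r with it, with 1 column per array. In the upper rows penicillin high-fat mice are the highest on average and control chow mice the lowest, in the 5 lowest rows the reverse, though single chow arrays overlap in some rows. Wfdc2 and Slc22a27 exceed the span of Rcan2 while the others are paler.

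The order of Rcan2, with every penicillin high-fat mouse above every penicillin chow and control high-fat mouse and these above every control chow mouse, was counted over all genes after it had been seen. It held for 26 of 13788 genes (0.189%), and the same order downward for 14. By the difference from penicillin high-fat to control chow mice, Rcan2 was 3 in that list, after Cidec at 3.72 and Wfdc2 at 2.83.

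Among the neighbours of Rcan2 on chromosome 17, the nearest one before it was also higher on high-fat diet. Cyp39a1, which encodes an oxysterol hydroxylase of bile acid synthesis and stands next to Rcan2 among the measured genes, rose by 1.19 ± 0.23 with high-fat diet averaged over treatments (limma adjusted p = 0.00709), a call kept in all 12 fits with 1 array removed. It measured 9.61, 8.54 and 9.45 in penicillin high-fat mice and 9.27, 9.16 and 8.88 in control high-fat mice, against 8.47, 8.16 and 8.59 in penicillin chow mice and 7.54, 6.78 and 8.20 in control chow mice. Penicillin and control mice overlapped on both diets, with a penicillin difference on high-fat diet of 0.09 ± 0.33 and one of 0.90 ± 0.33 on chow (limma adjusted p = 0.956 and 0.616). Of the other 6 tested neighbours, Supt3 rose by 0.28 ± 0.08 with the diet (limma adjusted p = 0.0423), a call kept in 4 of 12 fits with 1 array removed, and Pla2g7, Slc25a27, Enpp5, Enpp4 and Clic5 stood at 0.57 ± 0.19, 0.05 ± 0.07, 0.04 ± 0.09, 0.04 ± 0.06 and -0.09 ± 0.08, without a call. Ankrd66 was below the floor.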

How the data were processed

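Per the submitters' processing notes, the authors made the deposited table of log2 expression values with RMA in the affy package, with no version stated. The method corrects background, equalises the arrays' distributions and combines the probes of a set, so changes are relative to the bulk of the genes. The table holds 45101 probe sets on 12 arrays, with array medians of 5.52 to 5.59 and arrays correlated at 0.989 or more. Array data give no read depth, and with 3 mice a group precision is limited: a difference of 2 group means had a standard error of 0.10 in the median gene.

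Probe sets were named from the platform annotation, in which 34945 had 1 gene symbol, 932 several and 9160 none. Genes above the 40th percentile (log2 5.0) on at least 3 arrays were tested, 13788 of 18193, among them 6 of the 7 genes described. Limma (version 3.58.1, R 4.3.3) fitted 4 group means on 12 arrays, and eBayes and Benjamini-Hochberg adjustment over all tested genes followed. The pipeline was tested on simulated data. The labels call replicates biological, and p-values reflect only how far these mice spread.

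The members and lists were chosen with earlier results of these data known. Named were all members, up to 4 called genes of each list with the smallest adjusted p or else 2 with the smallest p, the 10 genes most and 5 least like Rcan2, and 4 measured neighbours on each side. Bcl3, Thra, Thrb, Thrsp, Klf9, Hr and Slc16a10 were named after their values were seen. Replicate numbers gave correlations of -0.23 to 0.17 between arrays of different groups, 3 of 18 above 0.1, so they were not taken as pairs. Alternatives covered the filter, probe sets, normalization, variance model, arrays used, array weights and a replicate block. Scan batches were not used here.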

Additional observations from a re-analysis of the deposited data

Results flagged for a closer look

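Among the genes named here, the penicillin difference of Slc22a27 was larger on high-fat diet than on chow by 1.66 on the log2 scale. The gene was named for its likeness to Rcan2, which was itself chosen by its penicillin values, so this is a description and no test is read from it. Its mean was 8.24 in penicillin high-fat and 6.19 in control high-fat mice, against 5.03 in penicillin chow and 4.63 in control chow mice, where it lay at or near the floor of the filter. It passed the filter through its high groups, and the size of the difference depends on values near background.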

How the results depend on the processing

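The diet difference of Rcan2 averaged over treatments passed the threshold in 12 of 12 fits that left out an array (1.20 to 1.29) and under 10 of 10 other alternatives (0.64 to 1.35), with 0.64 where its probe sets were averaged. In the fits with arrays left out or weighted, this contrast is not fully orthogonal to the penicillin contrasts. Those fits are thus less free of the choice of Rcan2 than the main one. The penicillin difference of Rcan2 was 0.79 to 0.94 on chow and 1.21 to 1.39 on high-fat diet without 1 array. Averaging probe sets gave 0.53 on chow and 0.70 on high-fat diet, since the probe set at background takes part, and leaving out the 3 arrays of low 18S signal gave 0.66 on chow. Counts of called genes of the calcineurin group are small and moved. Without those 3 arrays 1 was called for penicillin on chow and 1 on average, both times Rcan1, in a fit whose penicillin chow group is the single mouse of high acute-phase signal and whose spread comes from the other groups. For high-fat diet in penicillin mice the count was 0 with no filter, the probe set of largest variance, the mean of probe sets, cyclic loess, no low-18S arrays or only the 6 arrays compared, 2 with array weights, and 0 to 2 without 1 array. For high-fat diet averaged over treatments it was 2 with the stricter filter or median centring, 4 with array weights, and 1 to 3 without 1 array, with 3 without penicillin chow 1. The cause of these changes was not tested. Replicate numbers were not taken to pair the mice, and the labels do not say whether they do. With the number as a replicate block, 0 genes of the group were called for high-fat diet in penicillin mice, where Ppp3cb had an adjusted p of 0.0746 in limma, and 1 on average, Rcan2. Over all genes, penicillin on chow gave 0 to 4 calls without 1 array and 0 to 251 under the other alternatives, beside 1, and on high-fat diet 21 to 113 and 35 to 183, beside 47. Probes near background limit Rcan3, Ppp3cc and the other Rcan2 probe set.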
